A study of Homo sapiens with 9 samples.

Results

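The contrast described here sets 2 ligands of the aryl hydrocarbon receptor (AHR) against each other in cells that had all received a statin. Its members are the 6 of 9 libraries in which lovastatin was combined with SGA360 (3 libraries) or with SGA315 (3 libraries), chosen by their labels. The cells were Caco-2, an established line from a human colon adenocarcinoma that differentiates towards absorptive enterocytes and is used as a model of the intestinal lining. Both groups were grown with lipid-depleted serum, which removes the outside supply of sterol, and both received lovastatin at 10 µM and their ligand at 10 µM over 48 h. The other 3 libraries, from cells with lovastatin and no ligand, are used to place a level and to estimate the spread. Cells without the statin, other doses and other times were not analysed here, so every value belongs to 1 cell line, 1 dose and 1 time. The labels do not say if a group's 3 libraries are separate cultures. If they are not, the p-values reflect technical spread between libraries alone.

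AHR is a receptor in the cytosol that moves to the nucleus when a ligand binds, pairs with ARNT and activates genes of xenobiotic metabolism such as CYP1A1. Ligands differ in how much of this programme they start, and some occupy the receptor and block it while still changing other genes. Lovastatin is a statin, a drug that blocks cholesterol synthesis, and cells answer a fall in sterol through the SREBP factors, which raise the genes of sterol synthesis and uptake.

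Genes that differed in each direction are shown with the 250 bases before their starts, from RefSeq on GRCh38.p14. CYP1A1 and TIPARP are classical AHR targets, and capitals mark the AHR core GCGTG on either strand, so that it reads CACGC on the other. The CYP1A1 window lies at chr15:74725529-74725778 on the minus strand, with 1 match that begins 57 bases before the start. The TIPARP window lies at chr3:156674340-156674589 on the plus strand, with 2 matches.
CYP1A1: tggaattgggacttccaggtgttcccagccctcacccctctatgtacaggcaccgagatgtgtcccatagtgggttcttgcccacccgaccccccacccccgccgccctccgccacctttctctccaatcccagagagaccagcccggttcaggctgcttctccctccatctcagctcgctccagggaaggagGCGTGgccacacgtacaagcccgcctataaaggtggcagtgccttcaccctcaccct
TIPARP: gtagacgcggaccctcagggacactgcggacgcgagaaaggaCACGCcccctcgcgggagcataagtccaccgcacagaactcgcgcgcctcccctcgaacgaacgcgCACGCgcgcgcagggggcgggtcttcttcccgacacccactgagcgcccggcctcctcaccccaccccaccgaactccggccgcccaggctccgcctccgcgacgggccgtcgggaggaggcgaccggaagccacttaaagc
MT2A (chr16:56608334-56608583) and MT1X (chr16:56682220-56682469), both on the plus strand, encode metallothioneins, small proteins that bind zinc and copper. Capitals mark the cores of the metal response element, TGCACNC and TGCGCNC, on either strand, with 5 and 2 matches in MT2A and 2 and 2 in MT1X, none shared between the forms.
MT2A: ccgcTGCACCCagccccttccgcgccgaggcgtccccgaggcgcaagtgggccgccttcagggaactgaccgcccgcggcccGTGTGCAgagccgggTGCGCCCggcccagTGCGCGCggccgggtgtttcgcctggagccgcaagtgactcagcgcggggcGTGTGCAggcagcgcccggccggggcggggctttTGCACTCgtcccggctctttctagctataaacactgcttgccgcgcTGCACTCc
MT1X: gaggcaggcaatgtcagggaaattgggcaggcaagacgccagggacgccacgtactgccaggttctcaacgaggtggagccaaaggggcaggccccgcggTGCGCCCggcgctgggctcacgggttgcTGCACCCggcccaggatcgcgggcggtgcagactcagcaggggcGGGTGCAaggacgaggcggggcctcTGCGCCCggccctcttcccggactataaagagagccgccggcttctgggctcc
Of 35116 windows of this length in the table, 32.2% held the AHR core, 9.87% held TGCACNC and 16.8% held TGCGCNC. Among AHR targets not printed, the NQO1 window held 0 matches of the AHR core and the AHRR window 1. The matches describe these letters and are not evidence of binding.

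Libraries held 12332660 to 16868216 counts with SGA360 when each gene was counted once, 12883899 to 14735146 with SGA315 and 14124530 to 16297659 with lovastatin alone. Levels are given as CPM, counts scaled to library size after TMM adjustment. A count of 0 is compatible with up to 3 counts, which stand for 0.178 to 0.243 CPM, for counting error only. All 9 libraries had their closest match inside their own group, and edgeR's common coefficient of variation between libraries of a group, beyond counting noise, was 2.155%. Reads of 45S ribosomal RNA took 0.43 to 0.66% of counts with SGA360 and 0.235 to 0.317% with SGA315, and those of ribosomal proteins 6.62 to 6.7% and 7.01 to 7.23%. The part of these shares in the results below was not tested. In bulk RNA, fewer cells of a kind and less RNA per cell cannot be told apart.

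The direct comparison asked where these ligands, at one dose and time, leave cells in different states. Of 14663 genes tested, 3197 were higher with SGA360 (21.8%) and 3063 were lower (20.9%), so 42.7% were called (edgeR quasi-likelihood test, Benjamini-Hochberg adjusted p under 0.05). Most of these differences were small: among called genes the median size was 0.25 on the log2 scale, and 4118 of the 6260 differed by under 0.32 on that scale, the limit of a narrow difference used here. Differences are given throughout as log2 of the SGA360 level minus log2 of the SGA315 level, with their standard error (SE), so a negative value means lower with SGA360. In a test against a 1.5-fold change (glmTreat, adjusted p under 0.05), 75 genes were higher with SGA360 (0.511%) and 108 were lower (0.737%). Of those 108, 9 are UGT1A entries that share exons. In all, 25 of the 183 overlap a more abundant gene whose reads may not have been kept apart, the UGT1A entries other than UGT1A6 among them. Over all 14663 genes tested, 2647 overlap a more abundant gene. A test against a 2-fold change left 7 higher (0.0477%) and 24 lower (0.164%).

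The 7 genes past 2-fold and higher with SGA360 were the metallothionein genes MT1E, MT2A and MT1X, the keratin gene KRT4, the differentiation inhibitor ID1, the chitinase-like CHI3L1 and the growth factor TGFB2. Among the 24 that were lower stood the AHR targets CYP1A1, CYP1B1 and ALDH3A1, the receptor CUBN, the Ras exchange factor SOS1, and genes of fat and steroid handling: FABP1, CREB3L3, SULT2A1 and AKR1C1. At the other end, 7752 genes (52.9%) had a 95% interval of the difference that lay within 0.32 of 0, among them 5089 of the 8403 genes not called.

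**Figure D1:**
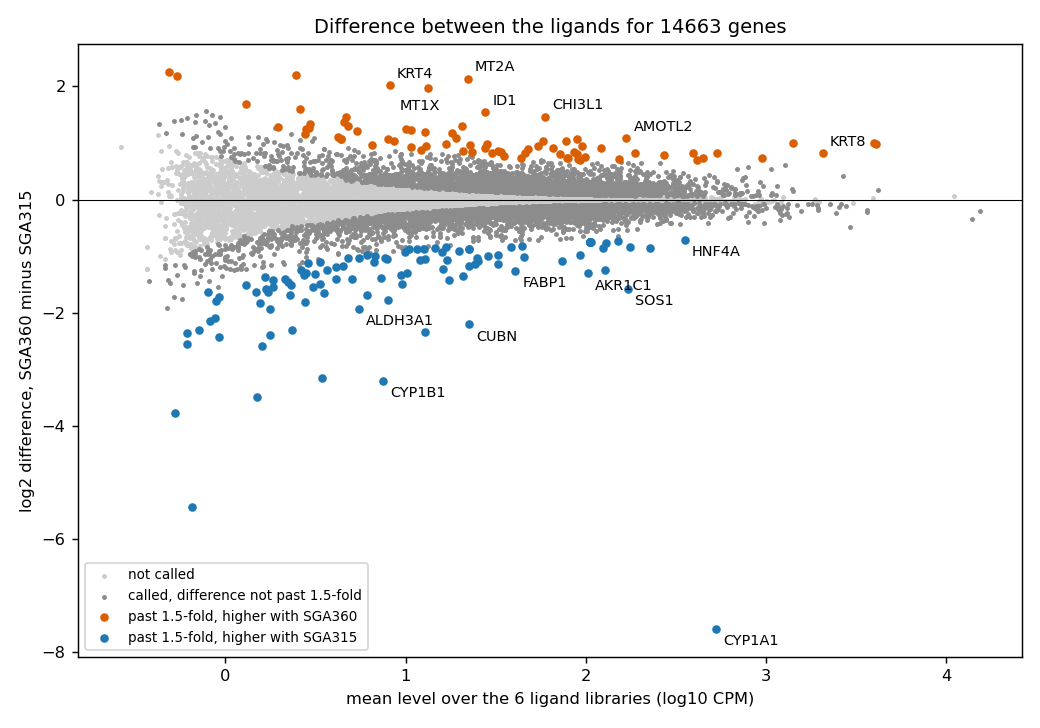
Each point is 1 of 14663 genes, with its mean level over the 6 ligand libraries (log10 CPM) on the horizontal axis and the log2 difference, SGA360 minus SGA315, on the vertical axis. Orange and blue points are the 75 and 108 genes past 1.5-fold, and CYP1A1, at −7.58, lies lowest.

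The AHR target CYP1A1 showed the largest difference of all genes tested, and most other AHR targets tested were lower with SGA360 by smaller amounts. CYP1A1, the cytochrome P450 used as the standard readout of AHR activation, stood at 5.25, 5.92 and 5.20 CPM in the 3 SGA360 libraries, 1042, 1088 and 1031 CPM in the SGA315 libraries, and 43.7, 41.4 and 48.9 CPM with lovastatin alone. The 3 groups did not overlap (of all genes tested, 49.2% had no overlap between the ligand groups): SGA315 lay above lovastatin alone and SGA360 below it. The level with SGA360 was 192-fold lower than with SGA315 (−7.58, SE 0.050, adjusted p = 2.23e-79). Relative to lovastatin alone the differences were −3.03 for SGA360 and 4.56 for SGA315, measured against the same 3 libraries.

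CYP1B1, a second P450 under AHR control, had 1.27, 1.39 and 1.81 CPM with SGA360, 12.8, 14.7 and 13 CPM with SGA315, and 2.63, 3.46 and 3.12 CPM with lovastatin alone. It repeated the order seen for CYP1A1, at 9.19-fold (−3.20, SE 0.146, adjusted p = 8.86e-29). ALDH3A1, an aldehyde dehydrogenase, had 2.47, 1.97 and 2.44 CPM with SGA360 and 9.21, 9.40 and 7.42 CPM with SGA315, a difference of −1.93 (SE 0.146). Here the SGA315 libraries were close to lovastatin alone, at 7.21 to 7.54 CPM (adjusted p = 0.0513 for that pair), while the SGA360 libraries were lower than both. For TIPARP, an ADP-ribosyltransferase that limits AHR signalling, the reverse held. Its levels of 34.3, 33.5 and 35.2 CPM with SGA360 were near lovastatin alone (33.6 to 35.9 CPM), and 47.1, 43.6 and 46.5 CPM with SGA315 were higher (−0.42, SE 0.053, adjusted p = 8.64e-10).

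Of 9 AHR targets, 8 could be tested, 7 were lower with SGA360 and 0 higher, 4 of them past 1.5-fold, at a median difference of −0.60 against −0.01 over all genes. The quinone reductase gene NQO1 (−0.41), the drug exporter gene ABCG2 (−0.48) and UGT1A6 (−0.73, a glucuronidation gene whose exons are shared within its locus) were lower with SGA360. All 3 of these were also lower with each ligand than with lovastatin alone, for example NQO1 at 408 ± 8.79 CPM with SGA360, 540 ± 4.07 CPM with SGA315 and 757 ± 7.30 CPM with lovastatin alone (mean ± SD, n = 3 each). AHRR, the repressor of AHR and itself an AHR target, was the exception, at 8.99 ± 1.37 and 9.47 ± 0.425 CPM. Its difference was −0.05 with a 95% interval of −0.27 to 0.16 (adjusted p = 0.712). CYP1A2 had 0 counts with SGA360 and 2 with SGA315 and was below the filter. AHR itself was higher with SGA360, at 69.9 ± 2.52 against 50.5 ± 1.81 CPM (0.46, SE 0.045), with 79.1 ± 2.45 CPM in lovastatin alone. Its partner ARNT differed by −0.13 (adjusted p = 0.0302) and the chaperone HSP90AB1 by −0.21. ABCG2 and ARNT were picked as examples after their values were seen.

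**Figure D2:**
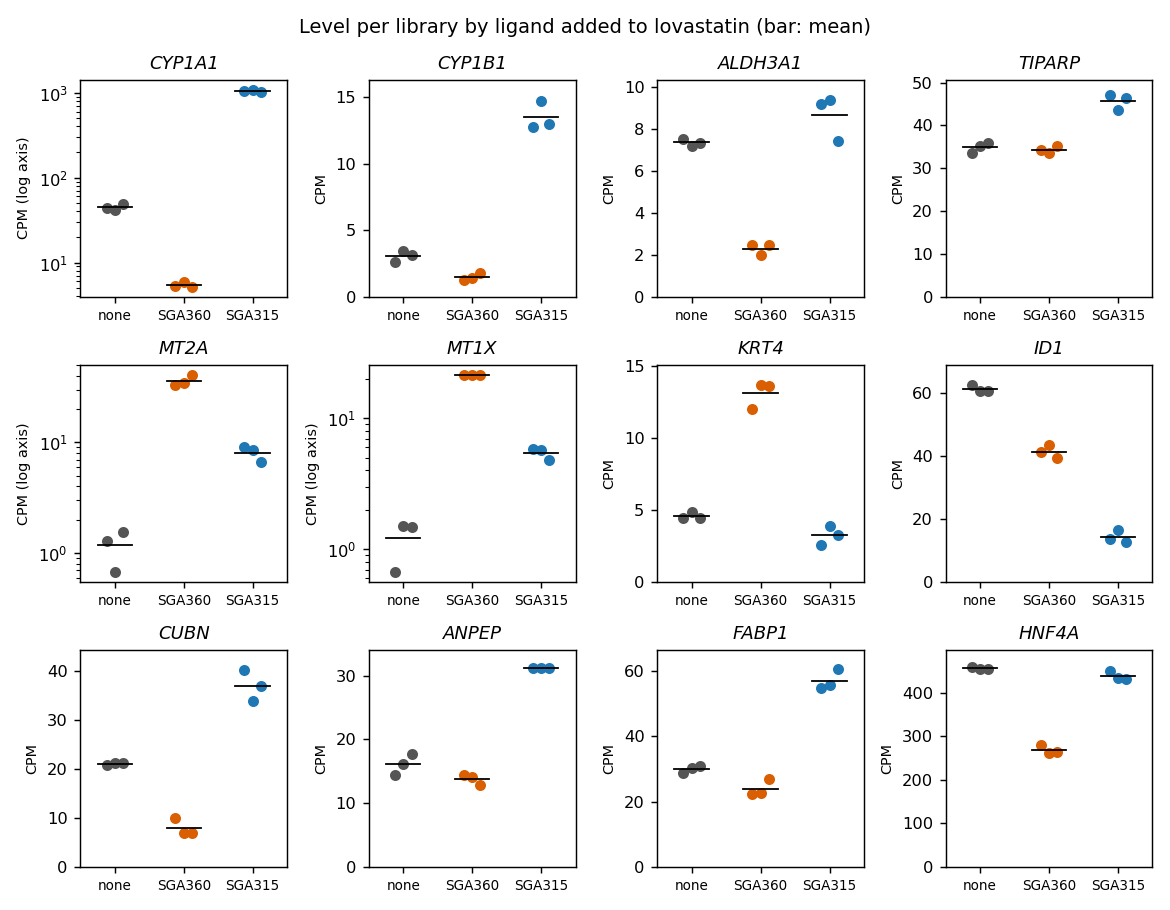
Level in CPM of 12 genes in each library with lovastatin alone (none), with SGA360 and with SGA315, where a bar is the mean of 3 libraries and CYP1A1, MT2A and MT1X are on a log axis. CYP1A1 and CYP1B1 are high with SGA315, the metallothionein genes and KRT4 with SGA360, and CUBN, ANPEP and FABP1 with SGA315.

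Metallothionein genes went the opposite way. MT2A had 32.9, 34.5 and 40.9 CPM with SGA360, 9.08, 8.49 and 6.66 CPM with SGA315, and 1.28, 0.676 and 1.56 CPM with lovastatin alone. All SGA360 libraries lay above all SGA315 libraries, and these above lovastatin alone (2.14, SE 0.089, 4.40-fold, adjusted p = 6.86e-31). MT1X had 21.3, 21.5 and 21.3 CPM with SGA360 and 5.79, 5.68 and 4.77 CPM with SGA315 (1.97, SE 0.100), against 0.674 to 1.5 CPM. Differences of 2.21 for MT1E, 1.07 for MT1F and 2.26 for MT1G completed the set, so 5 of the 5 tested of 10 members were higher with SGA360 and past 1.5-fold, at a median of 2.14. MT1G rested on 38, 7 and 1 counts summed over the SGA360, SGA315 and lovastatin libraries. It passed the filter only through the SGA360 libraries, where it was high, so its direction adds no support to that count. Among the members below the filter MT1H had 45, 6 and 0 counts and MT1M 6, 0 and 0. MT1A, at 8, 7 and 4 counts, and MT1B, at 0, 1 and 0, did not show this gap, and MT3 had 0 in every library.

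Zinc transporters did not move as 1 group, with 4 higher and 7 lower of 19 tested and a median of −0.06. SLC30A2, which loads zinc into vesicles, had 8.21, 8.93 and 8.74 CPM with SGA360 and 3.82, 5.12 and 4.24 CPM with SGA315 (0.97, SE 0.130, adjusted p = 3.63e-09), and was the 1 member past 1.5-fold. The zinc exporter SLC30A1, a target of the same metal-sensing factor as the metallothionein genes, was higher by 0.30 (SE 0.060), at 34.9 ± 1.11 against 28.4 ± 1.77 CPM. Importers were split, with SLC39A1 at 0.30 and SLC39A5 at −0.41. SLC30A1, MT1F and MT1G were picked after their values were seen.

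Keratins, the intermediate filaments of epithelial cells, were all higher with SGA360 among the 5 tested of 8 (median 0.82, 4 past 1.5-fold). KRT4, a keratin of stratified mucosa, had 12, 13.7 and 13.6 CPM with SGA360, 2.57, 3.86 and 3.26 CPM with SGA315 and 4.41 to 4.88 CPM with lovastatin alone (2.02, SE 0.125). Only SGA360 lay above lovastatin alone for this gene. KRT8, the main keratin of simple epithelium, stood at 2695, 2749 and 2453 CPM with SGA360, 1507, 1546 and 1427 CPM with SGA315 and 3461 to 3517 CPM with lovastatin alone. Both ligand groups were thus lower than lovastatin alone, and SGA315 the lower of them by 1.76-fold (0.82, SE 0.030). KRT18, its partner, differed by 0.74, but its entry overlaps KRT8 in the annotation, and KRT23 differed by 0.91 (SE 0.046).

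Targets of YAP, the co-activator that reports stretch and cell shape, were mostly higher with SGA360: 10 of 13 higher, 2 lower and a median of 0.52. AMOTL2, an angiomotin that restrains YAP, had 230, 243 and 211 CPM with SGA360, 111, 110 and 100 CPM with SGA315 and 147 to 151 CPM with lovastatin alone (1.09, SE 0.037, adjusted p = 7.89e-36). ANKRD1, a nuclear ankyrin-repeat protein, had 68.9, 73.8 and 70.5 CPM with SGA360, overlapping lovastatin alone (67.8 to 69.6 CPM), and 34.3, 36.9 and 39.5 CPM with SGA315 (0.95, SE 0.048). For CCN1, a secreted matrix protein, SGA360 was likewise at the level of lovastatin alone and SGA315 below it (41.8 ± 1.71, 40.3 ± 0.747 and 23.2 ± 0.634 CPM). The 2 members that were lower with SGA360 were the growth factor AREG (−0.62) and the angiomotin AMOTL1 (−0.18). CCN1, AREG and AMOTL1 were named after their values were seen.

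Single genes of the BMP and TGF-beta families differed by more than 1.5-fold. ID1, a BMP target that blocks differentiation factors, had 41.1, 43.4 and 39.3 CPM with SGA360, 13.5, 16.4 and 12.6 CPM with SGA315 and 60.5 to 62.4 CPM with lovastatin alone (1.54, SE 0.069). Both ligand groups were below lovastatin alone, without overlap. The BMP genes BMP7 (0.92, SE 0.036) and BMP4 (0.68, SE 0.069) were higher with SGA360, BMP7 at 159 ± 1.90 CPM against 84.4 ± 4.75 CPM. Over the list of BMP signalling, SGA360 exceeded SGA315 for 7 of 14 and was lower for 2 (scaled to totals, 6 and 2), and SMAD9, picked after its value was seen, was lower by −0.84. TGFB2 had 28.2, 29.6 and 29.8 CPM with SGA360, 11.6, 12.7 and 11.1 CPM with SGA315 and 14.9 to 15.3 CPM with lovastatin alone (1.30, SE 0.074), while of the 13 genes of TGF-beta signalling 5 were higher and 1 lower, a share near the 42.7% called over all genes. Among ERK feedback genes the level with SGA360 exceeded that with SGA315 for 8 of 13 and was lower for 1 (scaled to totals 7 and 1, by RLE 9 and 1), with medians of −0.65 and −0.77 for SGA360 and SGA315 relative to lovastatin alone. The ephrin receptor gene EPHA2, the 1 member past 1.5-fold, had 44.4 ± 1.61, 26.2 ± 2.11 and 84.2 ± 1.67 CPM with SGA360, SGA315 and lovastatin alone (0.77, SE 0.057).

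Sterol and fatty acid synthesis were both higher with SGA360, evenly and by modest amounts. All but 1 of the 21 genes of cholesterol synthesis were called higher and 0 lower, none past 1.5-fold, at a median of 0.41. HMGCS1, which makes HMG-CoA, had 332, 337 and 343 CPM with SGA360 and 254, 250 and 259 CPM with SGA315, both below the 495 to 501 CPM of lovastatin alone (0.41, SE 0.028, adjusted p = 3.05e-20). The largest difference of the list was that of MVD (0.59), and the exception was PMVK, which phosphorylates mevalonate, at −0.13 (95% interval −0.28 to 0.02, adjusted p = 0.146). The median of the list was −0.56 for SGA360 and −0.98 for SGA315 relative to lovastatin alone. These comparisons share the lovastatin libraries, and 62.8% and 69.2% of all genes were called in them.

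Sterol control genes included 9 higher and 2 lower of 14. The sterol sensor partner INSIG1 (0.54, SE 0.037), the SREBP gene SREBF2 (0.18) and NPC1L1 (0.20), the intestinal cholesterol importer, were higher with SGA360. SOAT2, which esterifies cholesterol for export in enterocytes, went the other way, with 12.6, 11 and 12.6 CPM with SGA360 and 23.7, 21.3 and 19.3 CPM with SGA315 (−0.84, SE 0.082). The exporter gene ABCA1, a target of the oxysterol receptor LXR, had nearly the same level with both ligands (26.1 ± 1.79 and 26.5 ± 1.27 CPM), with a difference of −0.03 and a 95% interval of −0.16 to 0.10. SOAT2 and PMVK were singled out after their values were seen. Of 13 fatty acid synthesis genes 12 were higher with SGA360 and 1 lower (median 0.32). SCD, which makes monounsaturated fat, differed by 0.61 (SE 0.027) and FASN, the fatty acid synthase, by 0.39 (SE 0.028). The member that was lower was ACACB (−0.27), named for that reason, whose product is tied to the control of fat oxidation.

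**Figure D3:**
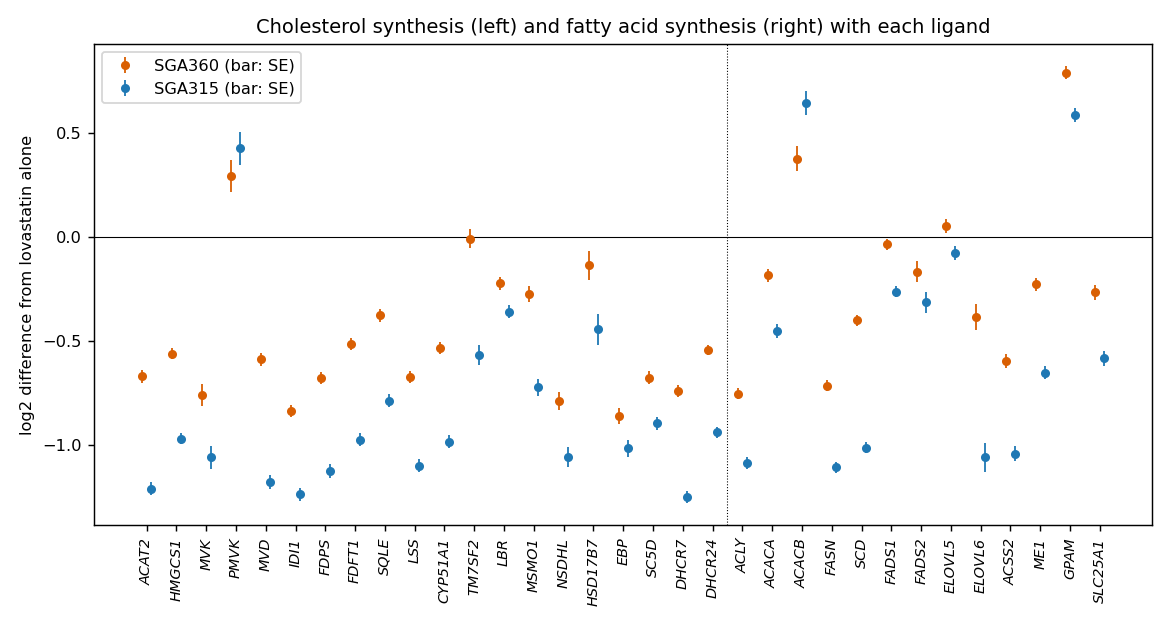
Log2 difference from lovastatin alone of the reported genes of cholesterol synthesis (left of the dotted line) and fatty acid synthesis (right) with SGA360 (orange) and SGA315 (blue), with SE bars. SGA360 points lie above SGA315 points except for PMVK and ACACB, and both ligands share the lovastatin libraries.

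In the brush border list, genes of the absorptive surface of enterocytes, 10 of 17 tested were lower with SGA360 than with SGA315, 5 were not called and 2 were higher (scaled to totals, 1). Past 1.5-fold 6 were lower, and the median over the 17 was −0.66. CUBN, the receptor for vitamin B12 with intrinsic factor, had 9.95, 6.96 and 7 CPM with SGA360, 40.1, 34.0 and 37.0 CPM with SGA315 and 20.8 to 21.3 CPM with lovastatin alone (−2.21, SE 0.0845, adjusted p = 6.67e-33). Lovastatin alone lay between the ligands and overlapped neither. Its membrane partner AMN did not follow, at −0.00 and not called. The peptidase gene ANPEP had 14.4, 14.1 and 12.9 CPM with SGA360, 31.2, 31.1 and 31.2 CPM with SGA315 and 14.5 to 17.7 CPM with lovastatin alone (−1.17, SE 0.072).

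ALPI, the intestinal alkaline phosphatase, had 10.1, 8.82 and 10.3 CPM with SGA360, 22.2, 22.4 and 23.2 CPM with SGA315 and 7.28 to 7.89 CPM with lovastatin alone (−1.22, SE 0.082). MYO1A, the myosin of microvilli, was lower than with SGA315 too (−1.33, SE 0.114), and its SGA360 libraries overlapped lovastatin alone. Sugar carriers were split: the fructose carrier SLC2A5 (−1.83) and the sodium-glucose carrier SLC5A1 (−1.71) were lower with SGA360, and the basolateral glucose carrier SLC2A2 was higher (0.58, SE 0.166, adjusted p = 0.00327). Levels of SLC2A5 were low, at 0.682, 2.42 and 1.65 CPM with SGA360, SGA315 and lovastatin alone. Those of SLC5A1 were 0.418, 1.41 and 2.46 CPM, so both ligand groups were below lovastatin alone. Villin, VIL1, the actin bundler of the brush border, differed by only 0.07 (1.05-fold, adjusted p = 0.0399), and the peptide carrier SLC15A1 by 0.11 (95% interval −0.08 to 0.30). These members other than CUBN, ANPEP and ALPI were picked after their values were seen.

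Lipid absorption and oxidation genes showed the same direction in part. FABP1, the fatty acid binding protein of enterocytes, had 22.2, 22.7 and 26.8 CPM with SGA360, 54.7, 55.6 and 60.7 CPM with SGA315 and 28.8 to 30.8 CPM with lovastatin alone (−1.26, SE 0.058, adjusted p = 9.45e-29). CREB3L3, a factor that drives apolipoprotein genes, was lower by 3.20-fold (−1.68, SE 0.138), and APOA4, an apolipoprotein of chylomicrons, by 2.25-fold (−1.17, SE 0.150). Of 10 tested genes of lipoproteins and absorption 5 were lower and 2 higher, 3 lower past 1.5-fold. Fatty acid oxidation had 7 of 12 lower and 0 higher. The receptor gene PPARA, which activates such genes, differed by −0.41 (SE 0.053).

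**Figure D4:**
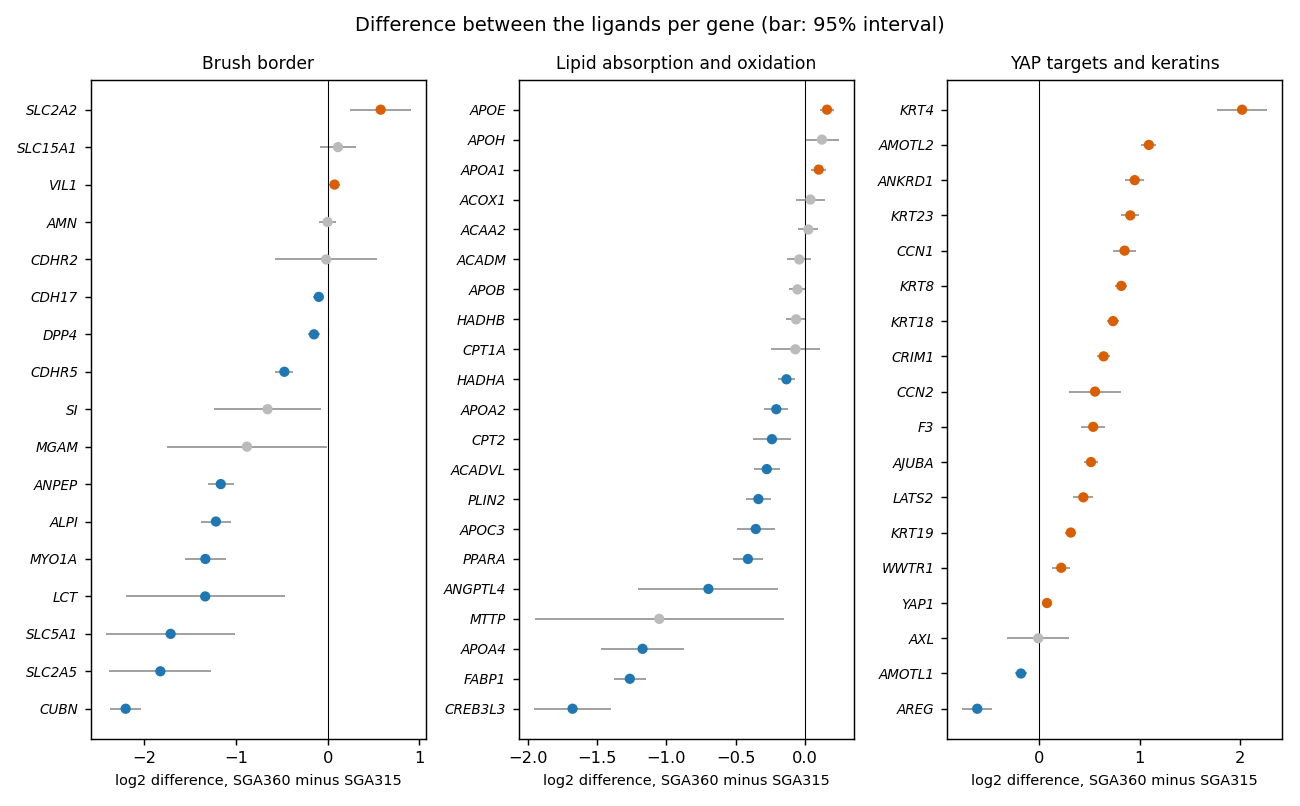
Log2 difference, SGA360 minus SGA315, with its 95% interval for the reported members of the brush border list (left), of lipid absorption and oxidation (middle) and of YAP targets and keratins (right). Grey genes were not called, and the left and middle panels lean to lower values with SGA360 while the right panel leans to higher ones.

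Transcription factors of intestinal identity were lower with SGA360 in 7 of 13 and higher in 1 (scaled to totals, 0), at a median of −0.24. HNF4A, a master factor of enterocytes and hepatocytes, had 280, 262 and 264 CPM with SGA360, 450, 434 and 431 CPM with SGA315 and 455 to 461 CPM with lovastatin alone (−0.71, SE 0.028, adjusted p = 5.10e-32). Here SGA315 was near lovastatin alone and SGA360 below it. CDX2, the caudal factor that specifies intestine, had the opposite reference: SGA360 at 80.2 ± 0.788 CPM was near lovastatin alone (75.9 ± 0.882 CPM) and SGA315 at 117 ± 0.914 CPM above it (−0.55, SE 0.036). SOX9, a factor of crypt progenitors, was lower with SGA360 as well (−0.77, SE 0.037). Drug metabolism genes linked to the receptor PXR were lower in 7 of the 10 tested of 16, 0 higher, at a median of −0.68. The 6 below the filter included NR1I2, the gene of PXR itself, and CYP3A4. Summed counts with SGA360, SGA315 and lovastatin alone were 3, 8 and 2 for NR1I2 and 1, 0 and 1 for CYP3A4. The steroid sulfotransferase gene SULT2A1 had 4.53, 4.70 and 5.90 CPM with SGA360, 12.6, 15 and 14.4 CPM with SGA315 and 4.28 to 4.71 CPM with lovastatin alone (−1.49, SE 0.110). The glutathione transferase genes GSTA1 (−0.52) and GSTA2 (−0.45) were lower by smaller amounts.

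**Figure D5:**
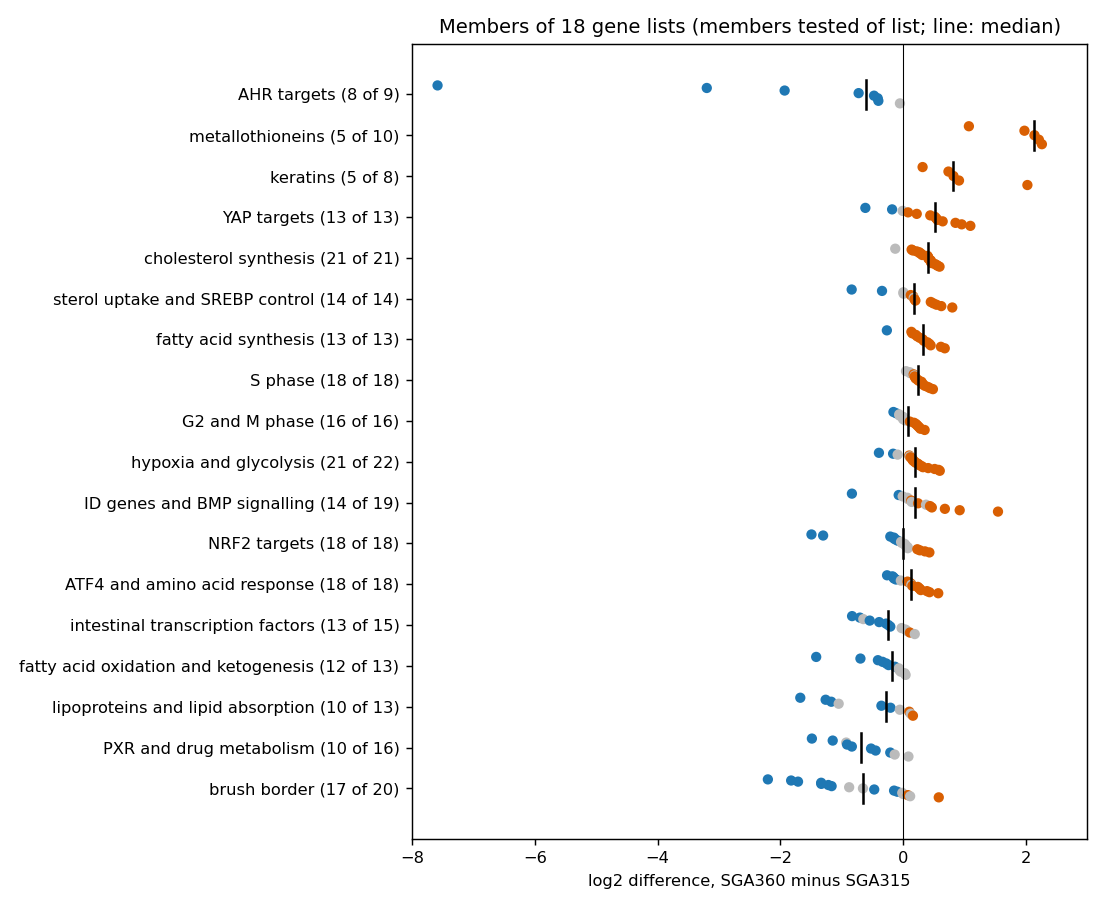
Log2 difference, SGA360 minus SGA315, of the tested members of 18 gene lists, with the median of each list as a line, orange and blue points called higher and lower with SGA360 and grey points not called. AHR targets reach −7.58 and metallothionein genes centre on 2.14, while most lists centre within 0.5 of 0.

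Cell cycle genes differed little, beside their distance from lovastatin alone. Of 18 S phase genes 14 were higher with SGA360 and 0 lower, with 0 past 1.5-fold and a median of 0.24. PCNA, the replication clamp, had 134 ± 5.98 CPM with SGA360, 104 ± 0.977 CPM with SGA315 and 284 ± 3.56 CPM with lovastatin alone (0.36, SE 0.035). For RRM2, a subunit of ribonucleotide reductase, the difference was 0.20 (SE 0.044). MKI67, the proliferation marker, was at 179 ± 13 and 181 ± 4.78 CPM with the ligands and 380 ± 6.61 CPM without (difference −0.01, 95% interval −0.07 to 0.06, adjusted p = 0.920), so any difference between the ligands was small. Among 16 genes of G2 and M phase 8 were higher and 2 lower.

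SOS1, which loads Ras with GTP, had 88.4, 82.0 and 86.4 CPM with SGA360, 267, 246 and 254 CPM with SGA315 and 112 to 118 CPM with lovastatin alone (−1.58, SE 0.035, adjusted p = 1.06e-46). Lovastatin alone lay between the ligands and overlapped neither. Lack of overlap between the ligands was a condition of the rule that names the largest differences, and 49.2% of all genes tested met it. FOSL1, an AP-1 factor downstream of Ras and ERK, was not called (0.11, 95% interval −0.27 to 0.49), with 11.8 ± 0.381 CPM in lovastatin alone and 2.92 ± 0.685 and 2.77 ± 0.764 CPM with the ligands. CHI3L1 had 87.0, 93.2 and 82.3 CPM with SGA360, 32.3, 33.0 and 29.8 CPM with SGA315 and 51.6 to 55.2 CPM with lovastatin alone (1.47, SE 0.050). MMP1, the interstitial collagenase, was lower with SGA360, at 22.1 ± 0.244 against 43.4 ± 1.36 CPM, and highest with lovastatin alone (88.3 ± 6.56 CPM).

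Other genes with large differences had different places relative to lovastatin alone. CPA6 (14.2, 5.95 and 11.6 CPM with SGA360, SGA315 and lovastatin alone) and GNG2 (15.1, 6.45 and 10.7 CPM) were above lovastatin alone with SGA360 and below it with SGA315. EDN1, which encodes endothelin (7.47, 3.26 and 11.3 CPM), the adenosine receptor gene ADORA1 (17.8, 7.82 and 24.7 CPM) and the protease-like PRSS35 (24.9, 11.1 and 35.2 CPM) were below lovastatin alone with both ligands, and lower with SGA315. The non-coding RNA LINC00673 (4.31, 21.4 and 9.17 CPM) was below lovastatin alone with SGA360 and above it with SGA315. FMO5, which overlaps CHD1L (2.75, 7.31 and 1.99 CPM), was above lovastatin alone with both ligands, and higher with SGA315. For the non-coding RNA LINC00886 (3.62, 12.4 and 2.79 CPM) and the adhesion gene JAML (4.07, 10.5 and 4.91 CPM), SGA315 was above lovastatin alone and the difference of SGA360 from it was not called (adjusted p = 0.0502 and 0.106). Some genes past 2-fold rested on few reads. MBL2, a lectin made in liver, had 1 count over the SGA360 libraries, 55 over the SGA315 libraries and 8 over the lovastatin libraries, a ratio of 60.3 scaled to totals with an exact 95% counting interval of 10.4 to 2420. SLC17A4 had 3, 42 and 7 counts (ratio 15.3, interval 4.90 to 77.4) and IGFBP1 11, 117 and 12. MBL2, SLC17A4 and IGFBP1 passed the filter only through the SGA315 libraries, where they were high.

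NRF2 targets were higher in 4 and lower in 7 of 18 at a median of 0.00. Past 1.5-fold 2 of them were lower, AKR1C1 among them, and 0 higher. ATF4 targets were higher in 11 and lower in 5 of 18 (scaled to totals 10 and 5, by RLE 12 and 5), with the amino acid transporter subunit SLC3A2 at 0.57 (SE 0.027). Of 21 hypoxia and glycolysis genes 17 were higher and 2 lower, with 0 past 1.5-fold and a median of 0.19. Relative to lovastatin alone the medians of this list were −0.365 with SGA360 and −0.713 with SGA315. The glucose transporter gene SLC2A1 (0.51) had 222, 156 and 524 CPM with SGA360, SGA315 and lovastatin alone. The hexokinase gene HK1 (0.58) had 71.8, 48.2 and 52.9 CPM. Inflammation genes were higher in 5 and lower in 3 of 11, with the chemokine CXCL3 at 1.28 (SE 0.231), and interferon response genes higher in 0 and lower in 2 of 11. Cytosolic ribosomal protein genes were lower with SGA360 in 48 of 80 and higher in 5, by little (median −0.08), beside the shares of ribosomal protein and ribosomal RNA reads given above. Zinc finger genes were lower in 105 and higher in 25 of 415, at the same median of −0.08.

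The label of an intestinal epithelial line was checked on its markers. All 9 epithelial markers passed the filter in these libraries, EPCAM, CDH1 and VIL1 among them, and SGA360 exceeded SGA315 for 6 and was lower for 3 (scaled to totals, 4 and 3). Their summed level was 6107 to 6546 CPM with SGA360 and 4754 to 4864 CPM with SGA315. KRT8 and KRT18 carried that gap: without them the other 7 summed to 2525 to 2618 CPM and 2584 to 2628 CPM, which overlap. Of other cell types, 3 of 7 goblet markers passed the filter, summing to 111 to 112 CPM with SGA360 and 86.4 to 88.8 CPM with SGA315, with the secreted mucin MUC2 at 7 and 3 counts. AGR2 carried that gap, at 107 and 84.15 CPM. SPDEF had 1.99 and 1.11 CPM, and TFF3, at 2.55 and 2.37 CPM, was not called. Leukocyte markers passed in 3 of 7, with HLA-DRA at 0 counts in every library and PTPRC at 10 and 21 counts with SGA360 and SGA315. Of those that passed, CD14, whose entry overlaps TMCO6, was higher with SGA360 (0.82, SE 0.132), LYZ was lower (−0.40, adjusted p = 0.0201), a call lost without SGA360 replicate 1 (0.0953) or SGA315 replicate 1 (0.111), and CD68 was not called. Endothelial markers passed in 2 of 5, at 1.68 to 2.52 and 2.5 to 3.09 CPM in sum, with KDR at 0 counts. Of 8 mesenchymal markers 4 passed, 2 higher and 2 lower: VIM (−0.41) and FN1 (−0.34), which epithelial lines also express, were lower with SGA360, and DCN was at 0 counts with both ligands.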

How the data were processed

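RNA of 9 Caco-2 libraries, 3 per group, was sequenced after poly(A) enrichment, per the labels' protocols, and groups and replicate numbers were taken from the labels. The authors deposited unnormalized read counts by transcript, with RefSeq accessions as row names. Per the submitters' processing notes, TopHat2 2.0.13, HTSeq 0.5.4p3 and hg19 were used, with no role stated. Annotation release and strand setting: not given in the sources used here. Reads shared by overlapping or antisense genes may therefore be mixed. Of 65325 entries, 64346 were named from RefSeq on GRCh38.p14 and 545 from GENCODE 29, and 434 (0.2547% of counts) matched neither and were left out. Entries of a gene repeat the same reads (in well-covered genes the second entry held a median of 99.791% of the highest), and the 1 with the highest total over 9 libraries was used. Genes whose counts were the same in all libraries formed 39 sets, reduced to 1 gene per set. No column was left unused.

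Counts were fitted in edgeR 4.0.16 (R 4.3.3) after TMM normalization and the filterByExpr filter (a minimum count of 10 and a total of at least 15), with all 9 libraries, 1 coefficient per group and no covariate, and tested by the quasi-likelihood F test with Benjamini-Hochberg adjustment over 14663 genes. All adjusted p-values come from it where no other tool is given. glmTreat tested against 1.5-fold, and against 2-fold as an alternative. Only 1 pair of compounds was compared. The test was checked on simulated counts. Alternatives were RLE scaling, scaling to totals, DESeq2 1.42.0, no filter, the 6 ligand libraries alone, a replicate block, the lowest accession per gene and leaving out each library. The comparison, the 51 gene lists and the motifs were chosen with earlier results of these data known, and no list was tested as a set. Named genes are the 12 largest differences in each direction among called genes with at least 5 CPM over the ligand libraries and no overlap, genes fixed by name, and per list, up to 3 tested genes of lowest p. The genes past 2-fold are also named. Replicates differed from each other beyond sampling noise, which does not tell if they are separate cultures. Each library was treated as 1 sample. Some genes, withheld for evaluation, are not reported here by name; counts over lists include them.

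Replicate numbers are shared between groups. Deviations of same-numbered libraries from their group means correlated at 0.02 to 0.12, not over 0.1 in every pair, so the numbers were not taken to pair samples.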

Additional observations from a re-analysis of the deposited data

How the results depend on the processing

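The numbers of genes higher and lower with SGA360, 3197 and 3063, stayed within 1.5 times under each alternative: 3352 and 2878 with RLE scaling, 3053 and 3185 with scaling to totals, 2624 and 2082 with DESeq2, 3184 and 2892 without the filter, 3094 and 2983 with the 6 ligand libraries alone, and 3165 and 3043 with the lowest accession. Leaving out 1 library gave 2758 to 3160 and 2571 to 3046. With the replicate block the counts were 3280 and 3152; 15 of 18 best matches of deviations shared a number, a hint from the data and not from the design. Against 2-fold in place of 1.5-fold, 7 genes were higher and 24 lower, and scaling to totals gave 73 and 109. Genes with an interval within 0.32 of 0 numbered 7694 to 8248, and 7203 to 7743 without 1 library.

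Of 168 genes named by the rule, 161 kept their side of the threshold under every alternative and 0 turned direction. Calls ended for LGR5 (−0.19, adjusted p = 0.0309, 0.0157 to 0.276 over the alternatives), BTN3A1 (0.0129 to 0.117), LYZ (0.014 to 0.111), TNFAIP3 (0.00119 to 0.0713) and SLC51B (0.00345 to 0.0551), and IFIT2 (0.016 to 0.45) and NR1H2 (0.0155 to 0.401) became called. Of these, LGR5 was lost with DESeq2 (adjusted p = 0.11), without SGA360 replicate 2 (0.276) and without SGA315 replicate 1 (0.0608) or 2 (0.15). The cause was not tested. Genes near the floor of 3 counts, such as MBL2, are limited by depth.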

Other observations

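Several other families and genes also differed between the ligands, some of them members of the lists. Those named here were chosen after their values were seen. Aldo-keto reductases, which reduce steroids, aldehydes and lipid carbonyls, were lower with SGA360 in 5 of 10 tested and higher in 2. AKR1C1 had 55.4, 54.4 and 69.0 CPM with SGA360, 142, 140 and 156 CPM with SGA315 and 137 to 146 CPM with lovastatin alone (−1.30, SE 0.047, edgeR adjusted p = 1.72e-34). AKR1C2 (−1.09), AKR1C3 (−1.01), AKR1B10 (2.82-fold) and AKR1D1 (−1.62) were lower too, and the AKR1C genes are close copies among which reads may be split. Among 24 nuclear receptor genes other than HNF4A 12 were lower with SGA360 and 3 higher, none past 1.5-fold. The fat-sensing receptor gene PPARG had 4.53, 4.76 and 5.04 CPM with SGA360 and 8.23, 9.05 and 9.39 CPM with SGA315 (−0.90, SE 0.120), and NR2F2 was higher (0.63, SE 0.036).

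Carriers of the SLC2A family, which include the fructose carrier SLC2A5, were higher in 6 and lower in 3 of 13. Over all genes tested, 21.8% were higher and 20.9% lower. SLC2A3 had 1.99-fold more reads with SGA360 (0.99, SE 0.031), and SLC2A14 (0.82) is a close copy of it. SCNN1A, a subunit of the epithelial sodium channel, had 120, 122 and 118 CPM with SGA360, 58.7, 57.7 and 56.1 CPM with SGA315 and 44.0 to 46.4 CPM with lovastatin alone (2.09-fold, SE of the log2 difference 0.039), and overlaps LTBR. CCND1, which drives entry to S phase, differed by 0.82 (SE 0.038), BCL2L1, which opposes apoptosis, by 0.69 (SE 0.029), and BMF, which promotes it, by 2.37-fold the other way.

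Next to CYP1A1 in the RefSeq order of genes, EDC3, an mRNA decapping factor, had 61.7, 62.3 and 64.2 CPM with SGA360, 127, 122 and 122 CPM with SGA315 and 68.6 to 70.9 CPM with lovastatin alone (−0.98, SE 0.038, edgeR adjusted p = 1.65e-32). CLK3, the next gene on that side, had a difference of −0.10 (95% interval −0.21 to 0.01), and CSK on the other side one of −0.38 (SE 0.048). ARID3B, beyond CLK3, was higher (0.13, SE 0.034). Among the neighbours of CYP1B1, CDC42EP3 was higher (0.72, SE 0.039), and ATL2 (−0.19) and GALM (−0.42) were lower. QPCT, RMDN2 and HNRNPLL, also beside CYP1B1, were not called. The tested neighbours of SOS1, which are DHX57, MORN2 and MAP4K3, differed by −0.00, −0.06 and −0.05 and were not called.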
